A study of Mus musculus with 12 samples.

Results

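The genes described here encode the subunits of the mitochondrial respiratory chain (complexes I to IV) and of ATP synthase (complex V), together with a few factors that share their names. They were taken from the gene table by name: protein-coding rows that start with mt-Nd, mt-Co, mt-Cytb or mt-Atp were counted as mitochondrially encoded, and rows that start with Ndufa, Ndufb, Ndufc, Ndufs, Ndufv, Uqcr, Cox4 to Cox8 or Atp5, or that are named Sdha, Sdhb, Sdhc or Sdhd, as nuclear-encoded. This gave 107 of 29428 genes, 13 mitochondrially encoded and 94 nuclear-encoded. The name pattern also takes the complex I assembly factors Ndufaf1 to Ndufaf8, and 2 genes whose names end in -ps although they are annotated as protein-coding (Cox5b-ps and Ndufb1-ps). Another 15 rows with such names are not annotated as protein-coding and were left out. Of the 107 genes, 105 passed the filter of at least 0.5 TPM (a level scaled for transcript length and library total) in at least 3 libraries. Cox4i2 and Cox7b2 did not pass.

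The RNA-seq data hold 12 libraries in 4 groups of 3. STHdhQ7 and STHdhQ111 cells are immortalized striatal lines from mice that carry 7 or 111 glutamines on both alleles of the huntingtin gene. The groups were nontreated STHdhQ7 cells (Q7-C), nontreated STHdhQ111 cells (Q111-C), and each line after 24 h with 100 ng/ml murine IFNγ plus 5 μg/ml LPS (Q7-T and Q111-T). Each genotype is represented by a single line kept in culture, so that the number of glutamines and any other difference between the lines cannot be told apart. The study calls its replicates biological but neither its methods nor the labels say what was separate between them, so p-values measure the spread between these libraries, of which the technical part is not known. In bulk RNA of this kind, fewer mitochondria per cell and less RNA per mitochondrion cannot be told apart either.

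Complex I passes electrons from NADH to coenzyme Q, complex II does so from succinate, complexes III and IV hand them on through cytochrome c to oxygen, and complex V uses the resulting proton gradient to make ATP. Complex II is built from nuclear-encoded subunits alone, whereas complexes I, III, IV and V combine subunits from both genomes. The mitochondrial subunits are transcribed from a small circular genome as long precursors that are cut into messages, most of which are polyadenylated. The nuclear subunits come from genes spread over the chromosomes, and many of those have short transcripts.

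Library totals ran from 57506000 to 96417800 estimated counts. The neuronal genes Syt1 and Snap25 were at 0.025 TPM or less in every library, as was Ptprc, a marker of microglia, although Tubb3 (2.56 to 83.6 TPM) and the microglial marker Tmem119 (2.96 to 20.2 TPM) were present, and 3 of 4 mesenchymal markers were at 5 TPM or more in all 12. Of these, Vim (1147 to 2651 TPM) and Col1a1 (59.2 to 806 TPM) were abundant throughout, whereas Acta2 was at 1491 to 1792 TPM in STHdhQ7 and at 24.6 to 56.0 TPM in STHdhQ111 cells, and Col1a2 ranged from 2.44 TPM in a Q7-T library to 258 TPM in a Q111-C library. Q7-C replicate 1 and Q7-T replicate 2 stood apart from the rest. Relative to the mean of the 12 libraries, the nuclear-encoded members had a median deviation of 0.72 and 1.17 on the log2 scale in these libraries, against −0.43 to 0.11 in the other 10. Since both are STHdhQ7 libraries, the main counts and medians are given with and without them.

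Most of the mitochondrially encoded subunits were lower in STHdhQ111 than in STHdhQ7 cells, and those of complex I had the lowest medians with all 12 libraries, although the complexes were not tested against each other. In Q111-C vs. Q7-C, 10 of 13 were lower at an adjusted p under 0.05, 7 of them by at least 2-fold, and 0 were higher, with a median log2 fold change of −1.19. Over all 16127 genes tested, 22.7% were called in this comparison (11.6% lower, 15.2% at least 2-fold in either direction), and the median log2 fold change was −0.02. In Q111-T vs. Q7-T, 8 of 13 were lower, all 8 by at least 2-fold, with a median of −1.18, against 38.4% called among all genes (18.7% lower, 24.5% at least 2-fold) and a median of −0.03. Without the libraries that stood apart, 8 of the 13 called in nontreated cells and 3 of the 7 called in treated cells reached 2-fold, against 16.4% and 22.4% of all genes. In TPM, 11 of 13 lay below Q7-C in every Q111-C library, against 12.6% of all genes, and 7 of 13 did so in treated cells, against 12.5%. All 37 genes of the mitochondrial chromosome that passed the filter, which include the ribosomal and transfer RNAs, had medians of −1.27 and −1.29 in these comparisons.

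mt-Nd1, a membrane subunit of complex I, had 15643, 18991 and 17948 TPM in Q7-C against 7041, 6641 and 6988 in Q111-C, and 15696, 18654 and 16885 in Q7-T against 4260.2, 7170.4 and 5165 in Q111-T. Every STHdhQ111 library was below every STHdhQ7 library. The log2 fold change was −1.67 ± 0.30 (SE, adjusted p = 0.0017, edgeR) in nontreated and −2.07 ± 0.30 (adjusted p = 3.11e-04) in treated cells. mt-Nd2, another proton-pumping membrane subunit, had 7169, 9523 and 9326 TPM in Q7-C against 3055, 2881 and 3129 in Q111-C, and 6225, 6412 and 8243 in Q7-T against 1855, 3234 and 2273 in Q111-T, again without overlap between the lines. Its log2 fold changes were −1.83 ± 0.27 (adjusted p = 4.63e-04, edgeR) and −1.91 ± 0.27 (adjusted p = 2.58e-04). mt-Nd3, a small subunit next to the quinone channel, was the lowest of the 13 genes in every library, with 750.4, 506 and 428 TPM in Q7-C against 169, 169 and 183 in Q111-C, and 514, 709.9 and 464 in Q7-T against 99.4, 152 and 94.7 in Q111-T. Its log2 fold changes were −2.09 ± 0.43 (adjusted p = 0.00404, edgeR) and −2.77 ± 0.44 (adjusted p = 5.40e-04), the lowest of the 13 with all 12 libraries. Without the libraries that stood apart they were −1.60 and −2.19, and mt-Nd2 (−1.81) was then the lowest in nontreated cells.

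mt-Cytb is the mitochondrial subunit of complex III and carries its haem b groups. It had 10541, 12009 and 11267 TPM in Q7-C against 6212, 5987 and 6478 in Q111-C, and 9908, 8495 and 10898 in Q7-T against 4347, 7451 and 5172 in Q111-T. The groups of the lines did not overlap, and the log2 fold changes were −1.19 ± 0.26 (adjusted p = 0.00539, edgeR) and −1.18 ± 0.25 (adjusted p = 0.00393). The calls on mt-Nd1, mt-Nd2, mt-Nd3 and mt-Cytb held in both comparisons whichever single library was left out.

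The other complex I subunits of this genome had log2 fold changes between −1.03 (mt-Nd4l) and −1.78 (mt-Nd6) in nontreated cells, of which mt-Nd4 (−1.27) and mt-Nd4l were called and mt-Nd5 (−1.25, adjusted p = 0.0618) and mt-Nd6 (adjusted p = 0.0753) were not. mt-Nd5 and mt-Nd6 were called there with DESeq2 (adjusted p = 0.0208 and 0.0175) and in an edgeR fit of only the groups compared (adjusted p = 0.0017 and 0.0169). The mt-Nd6 value was −1.12 without Q7-C replicate 1. mt-Nd4l overlapped between the nontreated lines in TPM, and its call there was lost without Q7-C replicate 2 or 3 or Q111-C replicate 1 or 2 (adjusted p between 0.0605 and 0.0763) and with limma on log2(TPM + 0.5) (−0.69, adjusted p = 0.0765). In treated cells all 4 were called, with −1.29 for mt-Nd4, −1.12 for mt-Nd4l, −1.52 for mt-Nd5 and −1.92 for mt-Nd6. mt-Nd6 overlapped between the treated lines, since Q7-T replicate 2 had 10619 TPM against 3340.2 and 3599.7 in the other Q7-T libraries, and without that library its log2 fold change was −0.70 (adjusted p = 0.271). The mt-Nd6 call was also lost without Q111-T replicate 1 or 3 or any Q111-C library (adjusted p between 0.0533 and 0.131). The mt-Nd5 value fell short without the same library (−0.71, adjusted p = 0.0528), without Q111-T replicate 1 (−1.32, adjusted p = 0.0747) and without Q111-T replicate 3 (−1.41, adjusted p = 0.0666), and mt-Nd4 without Q111-T replicate 1 (−1.03, adjusted p = 0.0604) or replicate 3 (−1.17, adjusted p = 0.0586). Without Q7-T replicate 2, mt-Nd4 was called at −0.79.

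The subunits of the catalytic core of complex IV differed less between the lines. mt-Co1, which holds the site where oxygen is reduced, had 17087, 23859.5 and 22272 TPM in Q7-C against 16873, 16690.3 and 17369 in Q111-C, and 21028, 14131 and 21318 in Q7-T against 20459, 29989 and 24091 in Q111-T. The nontreated groups overlapped on this scale, and the call in Q111-C vs. Q7-C (−0.62 ± 0.20, adjusted p = 0.0403, edgeR) was lost when any 1 of the 6 libraries compared, Q7-T replicate 3 or Q111-T replicate 3 was left out (adjusted p between 0.0554 and 0.154). In treated cells the log2 fold change of mt-Co1 was 0.03 (adjusted p = 0.91), and it took the opposite sign without Q7-T replicate 1 (−0.01) or Q111-T replicate 2 (−0.22). mt-Co2 was lower in nontreated cells (−0.89 ± 0.25, adjusted p = 0.0241), with 10541, 10707 and 10168 TPM in Q7-C against 7517, 6474 and 7456 in Q111-C, and had −0.43 (adjusted p = 0.197) in treated cells. mt-Co3 had −0.80 (adjusted p = 0.0976) and −0.87 (adjusted p = 0.0505). In treated cells it was called lower with DESeq2 (adjusted p = 0.0235), with counts divided by 4 (edgeR, adjusted p = 0.0465) and with a replicate block (edgeR, adjusted p = 0.0369).

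The ATP synthase subunits mt-Atp6, the proton channel, and mt-Atp8 were lower in nontreated STHdhQ111 cells (−1.13 ± 0.34, adjusted p = 0.0327, and −0.84 ± 0.24, adjusted p = 0.0277, edgeR). They were not called in treated cells (−0.69, adjusted p = 0.128, and −0.23, adjusted p = 0.478), where Q111-T replicate 2 had 11621 TPM of mt-Atp6 against 5996 and 6710.0 in replicates 1 and 3. Without this library, mt-Atp6 (−1.16), mt-Atp8 (−0.61), mt-Co2 (−0.77) and mt-Co3 (−1.20) were called lower in treated cells too, and the number of mitochondrially encoded members called was 12 in place of 8 (33.7% of all genes called, in place of 38.4%). Leaving out Q111-T replicate 1 or replicate 3 gave 5 (29.7% and 29.4% of all genes). The nontreated calls on mt-Atp6 and mt-Atp8 were lost without Q7-C replicate 1 or 2 or any Q111-C library, and that on mt-Atp8 also without Q7-C replicate 3 (adjusted p between 0.0587 and 0.118). The nontreated call on mt-Co2 was lost without Q7-C replicate 1 or 2 or any Q111-C library (adjusted p between 0.0538 and 0.114), and that on mt-Nd4 without Q7-C replicate 1 or any Q111-C library (adjusted p between 0.067 and 0.0916). In nontreated cells the number was 4 without Q111-C replicate 1 or replicate 2, 5 without Q111-C replicate 3, Q7-C replicate 1 or Q7-C replicate 2, and 13 without Q7-T replicate 2. The last is not in the groups compared and takes part through the scaling and the shared estimate of the spread. The share of all genes called was 16.5% to 20.2% in the fits that gave 4 or 5, and 31.5% in the one that gave 13. The direction of the median did not turn in either comparison: it lay between −1.24 and −1.07 in nontreated and between −1.53 and −0.71 in treated cells over the fits that left out 1 library.

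**Figure D1:**
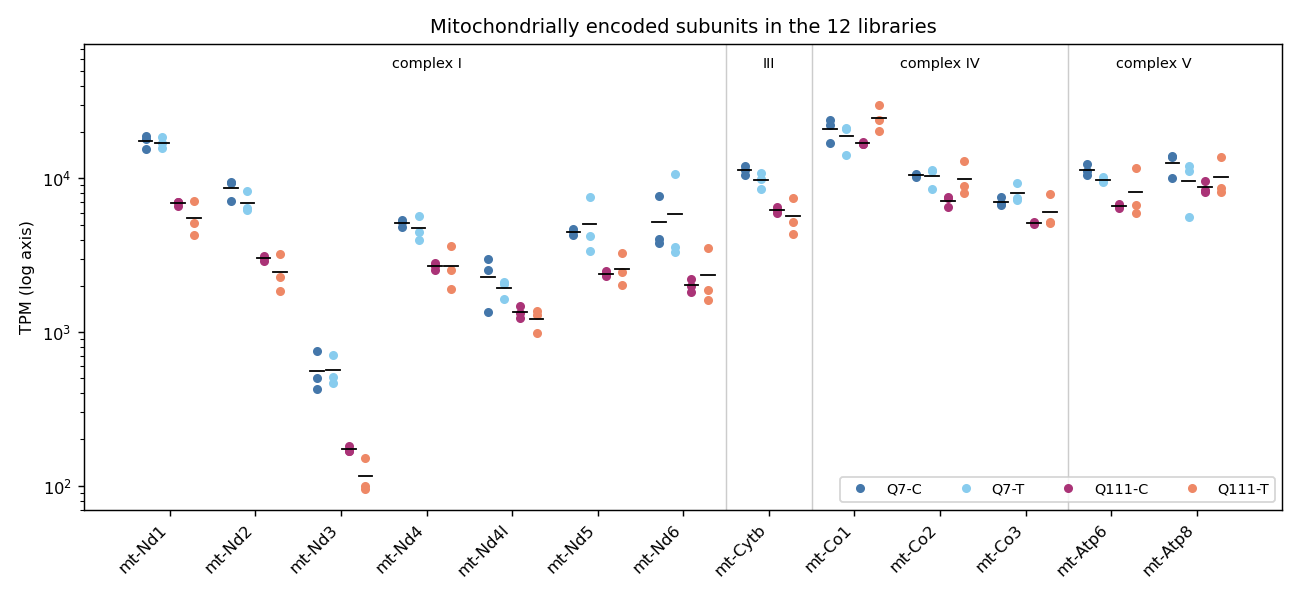
TPM of the 13 mitochondrially encoded subunits (horizontal axis, by complex) on a log axis, with 1 point per library and a black bar at the mean of each group of 3. The Q111-C and Q111-T points of mt-Nd1, mt-Nd2, mt-Nd3 and mt-Cytb lie below all STHdhQ7 points, while those of mt-Co1 overlap with them.

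Messages of the mitochondrial genome lie close together and partly share sequence, which limits what a count can say about each of them. The reading frames of mt-Atp8 (chrMT:7766-7969, plus strand) and mt-Atp6 (chrMT:7927-8607, plus strand) overlap by 43 bases in GRCm38, and both are translated from the same message. The overlap runs from chrMT:7927-7969 and is shown because reads from it cannot be given to either gene, with the start codon of mt-Atp6 in capitals.
mt-Atp8 and mt-Atp6: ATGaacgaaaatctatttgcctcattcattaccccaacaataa
mt-Nd4l and mt-Nd4 overlap by 7 bases on the same strand and are also carried by a shared message. mt-Nd5 (chrMT:11742-13565, plus strand) and mt-Nd6 (chrMT:13552-14070, minus strand) overlap by 14 bases on opposite strands. The strand setting of the authors' counting is not given in the sources used here. The ratio of mt-Nd6 to mt-Nd5 in TPM was 1.14 ± 0.44 in Q7-C against 0.84 ± 0.05 in Q111-C, and 1.08 ± 0.28 in Q7-T against 0.88 ± 0.17 in Q111-T (SD, n = 3), and it was highest in the libraries that stood apart, at 1.65 in Q7-C replicate 1 and 1.40 in Q7-T replicate 2.

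The uneven differences meant that the make-up of the mitochondrial messages differed between the lines. To describe this without reference to nuclear transcripts, each gene was divided by mt-Co1 of the same library, a choice made after the values had been seen. mt-Nd1 stood at 0.916, 0.796 and 0.806 of mt-Co1 in Q7-C and at 0.417, 0.398 and 0.402 in Q111-C. After treatment it stood at 0.746, 1.32 and 0.792 in Q7-T and at 0.208, 0.239 and 0.214 in Q111-T. The STHdhQ111 libraries were lower than the STHdhQ7 libraries under both conditions, and the Q111-T libraries were lower than the Q111-C libraries.

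The mean ratio of mt-Nd2 to mt-Co1 was 0.412 ± 0.012 in Q7-C against 0.178 ± 0.005 in Q111-C, and 0.379 ± 0.079 in Q7-T against 0.0976 ± 0.0090 in Q111-T (SD, n = 3). mt-Cytb gave 0.542 ± 0.065 in Q7-C against 0.367 ± 0.007 in Q111-C, and 0.528 ± 0.067 in Q7-T against 0.225 ± 0.020 in Q111-T. The same order of the groups without overlap (both STHdhQ7 groups above Q111-C, and Q111-C above Q111-T) was found for mt-Nd3, mt-Nd4 and mt-Nd5. In each of these comparisons the two-sided exact permutation test gave p = 0.1, the smallest it can give with 3 libraries against 3. mt-Co2 relative to mt-Co1 was lower in STHdhQ111 cells under both conditions, with a mean ratio of 0.507 in Q7-C, 0.421 in Q111-C, 0.555 in Q7-T and 0.399 in Q111-T, but Q111-C and Q111-T overlapped. mt-Co3 relative to mt-Co1 overlapped between the lines in nontreated cells (exact permutation test, p = 0.3). In treated cells its mean ratio was 0.452 in Q7-T against 0.243 in Q111-T, without overlap (exact permutation test, p = 0.1). For mt-Co3 the Q111-T libraries also lay below the Q111-C libraries. mt-Atp6 and mt-Nd6 relative to mt-Co1 were lower in STHdhQ111 cells without overlap under both conditions, but their Q111-C and Q111-T libraries overlapped. Ratios within a library show unequal change and do not say which of the genes changed.

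**Figure D2:**
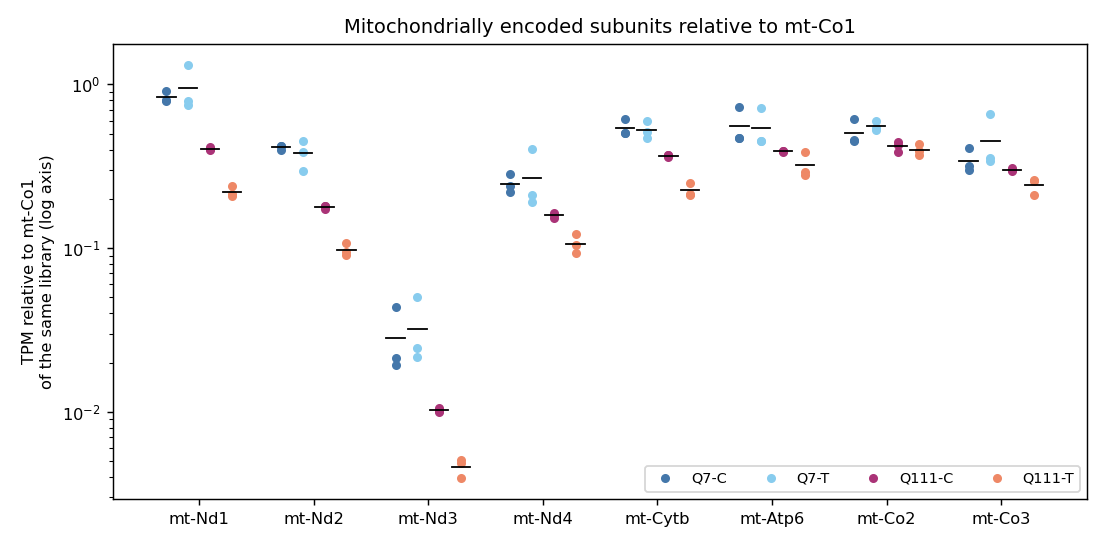
TPM of 8 mitochondrially encoded subunits relative to mt-Co1 of the same library, on a log axis, with 1 point per library and a black bar at the mean of each group of 3. For mt-Nd1, the Q111-C libraries lie between 0.398 and 0.417 and the Q111-T libraries between 0.208 and 0.239, below all STHdhQ7 libraries.

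The nuclear-encoded members showed few calls in nontreated cells. In Q111-C vs. Q7-C, 1 of 92 was higher and 3 were lower, 4.35% against the 22.7% called among all genes, with a median log2 fold change of −0.26 and 73 of 92 below 0. In Q111-T vs. Q7-T, 1 was higher and 12 were lower, 14.1% against 38.4%, with a median of −0.70 and 84 of 92 below 0. Calls by at least 2-fold numbered 3 and 9, or 3 and 5 without the libraries that stood apart. In TPM, 21 were higher and 10 lower without overlap in nontreated cells, against 38.8% and 12.6% of all genes, and 11 were higher and 13 lower in treated cells, against 33.9% and 12.5%. DESeq2 called 8 (3 higher, 5 lower) and 23 (2 higher, 21 lower), against 28.5% and 44.4% of all genes.

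By complex, the medians in nontreated and treated cells were −0.28 and −0.45 for the 39 complex I subunits (by name, so that Ndufa4 and Ndufa4l2 are counted here), −0.28 and −0.64 for the 8 Ndufaf assembly factors, −0.04 and −0.25 for the 4 complex II subunits, −0.22 and −0.68 for the 8 complex III subunits, −0.44 and −0.92 for the 16 complex IV subunits, and −0.26 and −0.89 for the 17 complex V subunits. Complex II had 0 calls in both comparisons with edgeR. For complex I, the 7 mitochondrially encoded subunits had medians of −1.67 and −1.91, with 5 and 7 of them called lower. For complex IV, the 3 mitochondrially encoded subunits had medians of −0.80 and −0.43. Without the libraries that stood apart, the medians of the nuclear-encoded sets lay between −0.26 and 0.19 in both comparisons, and those of the mitochondrially encoded subunits were −1.20 and −0.76 for complex I and −0.65 and −0.29 for complex IV, with mt-Cytb (−0.99) then below the complex I median in treated cells.

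**Figure D3:**
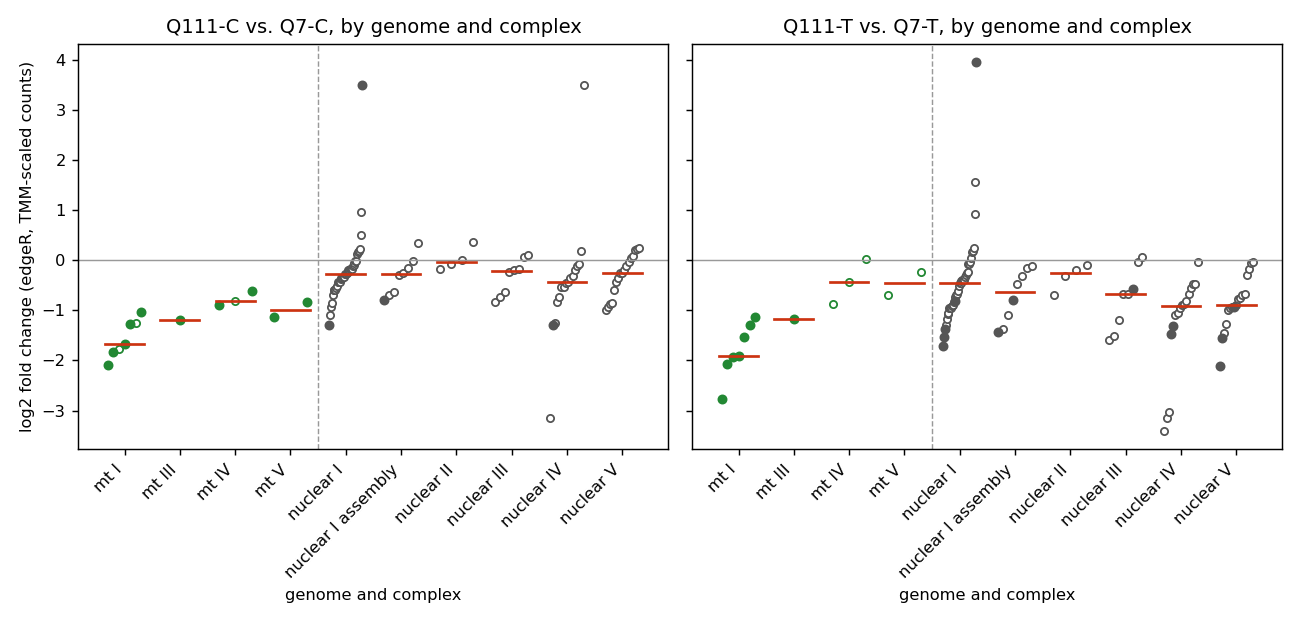
Log2 fold change of STHdhQ111 vs. STHdhQ7 cells (vertical axis) for the 105 members tested, by genome and complex, in nontreated (left) and treated cells (right). Filled points have an adjusted p under 0.05 (edgeR), open points do not, and red bars are medians, which lie at −1.67 and −1.91 for the mitochondrially encoded complex I subunits and at −0.28 and −0.45 for the nuclear-encoded ones.

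The medians of the nuclear-encoded members depended on the libraries that stood apart. Without Q7-C replicate 1 and Q7-T replicate 2, which were left out together after the data had been seen, the median was 0.09 in nontreated cells with 8 higher and 6 lower (15.2% of 92 against 34.5% of all genes), and −0.01 in treated cells with 6 higher and 11 lower (18.5% against 47.8%). All 4 calls of the full set were kept in nontreated cells and 12 of 13 in treated cells, where Cox5a was lost. Leaving out single libraries, the median was 0.10 without Q7-C replicate 1 and lay between −0.44 and −0.22 without each of the others in nontreated cells, and it was −0.04 without Q7-T replicate 2 and between −0.95 and −0.62 otherwise in treated cells. The number called in nontreated cells was 13 without Q7-T replicate 2 (against 31.5% of all genes) and 2 without Q7-C replicate 1, Q7-C replicate 2, Q111-C replicate 1 or Q111-C replicate 2 (against 16.5% to 20.2%). In treated cells it was 25 without Q7-T replicate 1 (against 39.7%) and 22 without Q7-T replicate 3 (against 34.7%). The medians of the mitochondrially encoded members kept their direction without both libraries, at −1.07 (13 of 13 called lower) and −0.68 (7 called lower).

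The libraries that stood apart also differed by transcript length, though not evenly. The nuclear-encoded members have a median principal transcript of 863 nt (360 to 4715 nt), against 2489 nt for all genes tested, and 57.6% of them are shorter than 1000 nt, against 18.5% of all genes. In Q7-C replicate 1 and Q7-T replicate 2, the deviation of a gene from its mean over the 12 libraries fell with transcript length across 16108 genes (Spearman's rho = −0.36 and −0.42, across genes, which are not independent), and in the other 10 libraries rho lay between −0.08 and 0.28. The 83 cytoplasmic ribosomal protein genes, another family of short transcripts, had median deviations of 0.88 and 1.55 there. Over all genes the medians were 0.10 and 0.16 under 700 nt, 0.33 and 0.61 from 700 nt to under 1000 nt, and −0.33 and −0.51 from 4000 nt. The 34 nuclear-encoded members under 700 nt stood at 0.82 and 1.35, but the 2 of at least 4000 nt stood at 1.02 and 1.55, so that the members were raised in these libraries in every length class.

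The median log2 fold change of the nuclear-encoded members lay below that of all genes in each length class. Among those shorter than 700 nt, the median log2 fold change was −0.40 in nontreated and −0.90 in treated cells (34 members), against −0.18 and −0.42 for all 1915 genes of that class. From 700 nt to under 1000 nt it was −0.19 and −0.62 for 19 members, against −0.17 and −0.46 for 1071 genes. From 1000 nt to under 2000 nt it was −0.19 and −0.70 for 29 members, against −0.12 and −0.26 for 3465 genes. From 2000 nt to under 4000 nt it was −0.14 and −0.24 for 8 members, against 0.02 and 0.04 for 5600 genes, and from 4000 nt it was −0.58 and −1.26 for 2 members, against 0.09 and 0.26 for 4057 genes. Without both libraries, the members stood above all genes in the shortest class (0.08 and 0.05 against 0.05 and −0.05), from 700 nt to under 1000 nt (0.25 and 0.09 against 0.06 and −0.06) and, in nontreated cells, from 1000 nt to under 2000 nt (0.04 against 0.03). The mitochondrial messages are short as well (204 to 1824 nt). With an offset for transcript length in the fit, the medians of the mitochondrially encoded members were −1.10 (13 of 13 called) and −1.02 (9 called), against 28.6% and 45.5% of all genes called, and those of the nuclear-encoded members −0.16 (7 called) and −0.48 (18 called). mt-Nd5 (−1.24, adjusted p = 0.0235), mt-Nd6 (−1.59, adjusted p = 0.0312) and mt-Co3 (−0.70, adjusted p = 0.0159) were then called lower in nontreated cells as well.

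**Figure D4:**
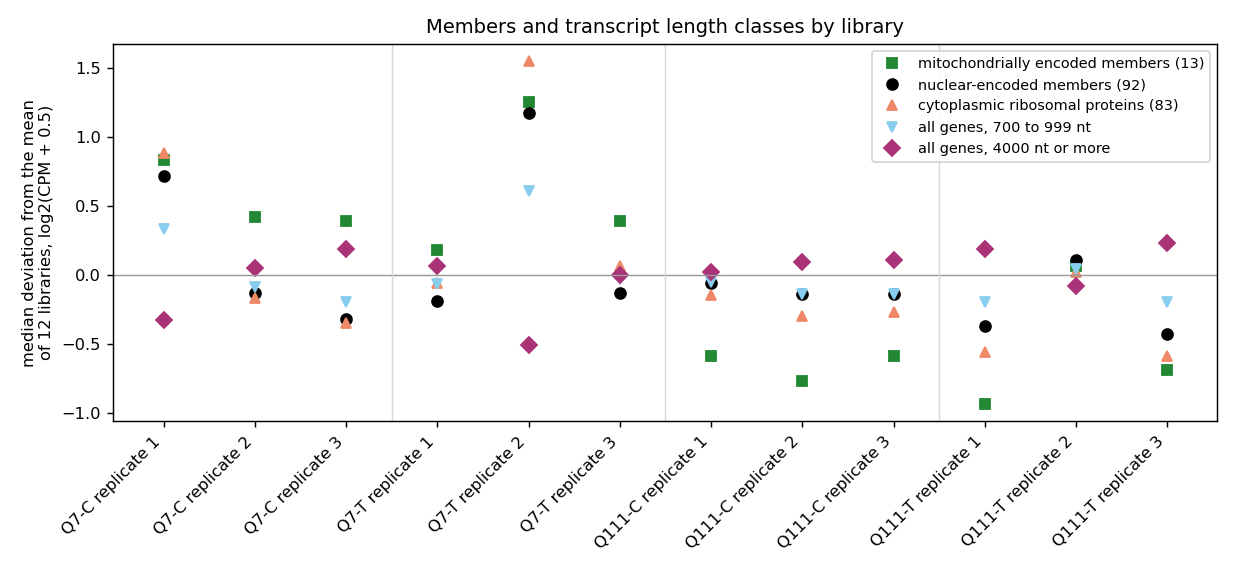
Median deviation of 5 gene sets from their mean over 12 libraries, in log2(CPM + 0.5), for each library. Q7-C replicate 1 and Q7-T replicate 2 show the nuclear-encoded members at 0.72 and 1.17 and genes of at least 4000 nt at −0.33 and −0.51, and the mitochondrially encoded members lie below 0 in 5 of 6 STHdhQ111 libraries.

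Summed over the members, the mitochondrially encoded messages took 109803, 124180 and 119207 TPM in Q7-C against 69571, 66700 and 71838 in Q111-C, and 105329, 107997 and 112273 in Q7-T against 64993, 106050 and 74386 in Q111-T. The nontreated lines did not overlap, whereas Q111-T replicate 2 reached the level of the Q7-T libraries. The nuclear-encoded messages summed to 9118, 7583 and 6924 TPM in Q7-C against 8550, 8317 and 8226 in Q111-C, and 6892, 10284 and 6879 in Q7-T against 6695, 7467 and 6596 in Q111-T, so that the lines overlapped under both conditions.

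The ratio of both sums was 15.2 ± 2.78 in Q7-C against 8.30 ± 0.38 in Q111-C, and 14.0 ± 3.1 in Q7-T against 11.7 ± 2.28 in Q111-T (SD, n = 3). Q111-C (8.02 to 8.73) lay below Q7-C (12.04 to 17.22) and below Q111-T (9.71 to 14.2) without overlap, and Q111-T overlapped with Q7-T (10.5 to 16.3). Within the mitochondrial messages, the complex I subunits summed to 0.423 of their Q7-C level in Q111-C and to 0.401 of their Q7-T level in Q111-T, and the complex IV subunits to 0.757 and 1.10.

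Among the nuclear-encoded members, the lower calls included subunits that sit on chromosome 17. Cox7a2l, a factor that joins complexes III and IV into supercomplexes (chr17:83501918-83517330, minus strand, GRCm38), had 259, 223 and 205 TPM in Q7-C against 117, 123 and 119 in Q111-C, and 222, 273 and 220.0 in Q7-T against 124, 114 and 124 in Q111-T. All STHdhQ111 libraries lay below all STHdhQ7 libraries, and the log2 fold changes were −1.30 ± 0.28 (adjusted p = 0.00584, edgeR) and −1.47 ± 0.28 (adjusted p = 0.00195). Both calls held whichever single library was left out.

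Ndufv2, an iron-sulfur subunit of the NADH-oxidising module of complex I (chr17:66078638-66101559, minus strand), had 138, 117 and 104 TPM in Q7-C against 64.9, 62.9 and 61.4 in Q111-C, and 96.2, 167 and 97.3 in Q7-T against 47.3, 61.1 and 51.0 in Q111-T, without overlap between the lines. Its log2 fold changes were −1.29 ± 0.39 (adjusted p = 0.0341, edgeR) and −1.71 ± 0.39 (adjusted p = 0.00564), and the latter was −1.02 without Q7-T replicate 2. The call in nontreated cells was lost without any 1 of 7 libraries (all 3 Q111-C libraries, Q7-C replicates 1 and 2, and Q111-T replicates 1 and 3), with adjusted p between 0.0516 and 0.127. Ndufb10, an accessory subunit of the complex I membrane arm (chr17:24722060-24724478, minus strand), was lower in treated cells (−1.38 ± 0.33, adjusted p = 0.00637) and had −0.93 (adjusted p = 0.0605) in nontreated cells, where it was called without the libraries that stood apart (−0.48, adjusted p = 0.0113). The complex I assembly factor Ndufaf7, a methyltransferase (chr17:78937136-78948052, plus strand), was lower in treated cells (−0.80 ± 0.17, adjusted p = 0.00365), a call that was lost with limma on log2(TPM + 0.5) (−0.37, adjusted p = 0.109).

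All 7 members on chromosome 17 had a median of −0.93 in nontreated and −1.30 in treated cells, or −0.48 and −0.64 without the libraries that stood apart. The other members there, Ndufa7, Ndufa11 and Ndufv3, were not called. Ndufv3, a small accessory subunit, had 6.67, 6.40 and 5.35 TPM in Q7-C and 16.3, 15.2 and 14.5 in Q111-C, without overlap, and was called higher in both comparisons when the libraries that stood apart were left out (1.21, adjusted p = 6.05e-04, and 1.64, adjusted p = 6.58e-05). The chromosome as a whole stood lower in STHdhQ111 cells. Its 843 genes tested had medians of −0.51 and −0.60, with 34% and 49% called. The pooled genes of the other nuclear chromosomes had a median of 0.00 in both comparisons, with 22% and 37.8% called. Among the other nuclear chromosomes that carry members, single medians ran from −0.28 (chromosome 19) to 0.13 (chromosome 4) in nontreated cells. In treated cells they ran from −0.35 (chromosome 19) to 0.17 (chromosome 13). Leaving out the libraries that stood apart, the medians were −0.45 and −0.52 on chromosome 17 (49.8% and 58.6% called). They were 0.02 and 0.07 for the pooled genes of the other nuclear chromosomes (33.5% and 47.2%). Genes within 1 Mb of each of the 7 members had medians between −0.26 and −0.87. Without the members on chromosome 17 the medians of the nuclear-encoded members were −0.26 and −0.68, or 0.11 and 0.04 without the libraries that stood apart, and whether the chromosome is present in the same number of copies in both lines was not tested.

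Other lower calls touched each complex except complex II. Ndufaf4, a complex I assembly factor (chr4:24898083-24905001, plus strand), had 14.2, 16.1 and 15.4 TPM in Q7-C against 10.4, 9.63 and 12.8 in Q111-C, and 13.8, 13.7 and 13.4 in Q7-T against 7.17, 6.68 and 6.95 in Q111-T. The lines did not overlap under either condition. Its log2 fold changes were −0.80 ± 0.21 (adjusted p = 0.0184, edgeR) and −1.43 ± 0.22 (adjusted p = 4.18e-04), and the former was lost without Q7-C replicate 1 or 2 or Q111-C replicate 1 or 2 (adjusted p between 0.0506 and 0.0992).

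In treated cells, Atp5b, the catalytic beta subunit of ATP synthase and the most abundant nuclear-encoded member per length, had 941, 871 and 972 TPM in Q7-T and 665, 618 and 692 in Q111-T. The log2 fold change was −0.94 ± 0.17 (adjusted p = 0.00132, edgeR). Atp5g1, one of the genes for the c subunit of the rotor ring, had 19.2, 46.7 and 20.0 TPM in Q7-T and 8.70, 12.3 and 8.48 in Q111-T, and had the lowest value of the nuclear-encoded members called (−2.12 ± 0.53, adjusted p = 0.00885). Without Q7-T replicate 2 it was −1.14 (adjusted p = 0.0213). The other genes for the same protein, Atp5g2 (−0.95, adjusted p = 0.122) and Atp5g3 (−0.77, adjusted p = 0.0861), were not called. The delta subunit gene Atp5d had −1.55 (adjusted p = 0.0177), the complex I core subunits Ndufv1 and Ndufs8 had −0.81 (adjusted p = 0.00587) and −1.53 (adjusted p = 0.0222), the complex III core protein Uqcrc2 had −0.58 (adjusted p = 0.0112) and the complex IV subunit Cox5a had −1.32 (adjusted p = 0.0322).

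Of these, Atp5d (−0.73, adjusted p = 0.0565), Ndufs8 (−0.64, adjusted p = 0.0862) and Cox5a (−0.52, adjusted p = 0.155) were lost without Q7-T replicate 2, where Cox5a had 98.6 TPM against 50.9 and 49.5 in the other Q7-T libraries. The same genes were lost without Q111-T replicate 1 (adjusted p = 0.0645, 0.075 and 0.112) and without Q111-T replicate 3 (adjusted p = 0.0618, 0.0762 and 0.106), and Uqcrc2 without Q111-T replicate 3 (adjusted p = 0.0525). Without both libraries that stood apart, Atp5d had −0.70 and Ndufs8 −0.61, and both were called, whereas Cox5a had −0.49 (adjusted p = 0.0511). The call on Uqcrc2 was also lost with total count scaling (−0.35, adjusted p = 0.058), with limma on log2(TPM + 0.5) (−0.15, adjusted p = 0.506) and in a fit of the groups compared (−0.56, adjusted p = 0.0821), where Atp5d (adjusted p = 0.0565), Ndufs8 (adjusted p = 0.0685) and Cox5a (adjusted p = 0.0933) were lost too. The call on Ndufv1 was lost with limma (−0.37, adjusted p = 0.0699).

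The only nuclear-encoded member called higher in STHdhQ111 cells with all 12 libraries was Ndufs5, an accessory subunit of complex I on chromosome 4 (chr4:123712710-123718186, minus strand). It had 3.43, 3.17 and 1.59 TPM in Q7-C against 39.0, 42.8 and 40.9 in Q111-C, and 2.10, 1.88 and 1.74 in Q7-T against 33.7, 47.7 and 39.5 in Q111-T. The lines were far apart, with log2 fold changes of 3.50 ± 0.39 (adjusted p = 5.80e-05, edgeR) and 3.94 ± 0.40 (adjusted p = 2.34e-05). A nearly identical copy changes how this value can be read. Ndufs5-ps, a copy on chromosome 16 (chr16:42955631-42955949, plus strand) that is not annotated as protein-coding, matches Ndufs5 from its start codon over 319 aligned bases (99.4% identical) with 2 differences, T81C and A105G (the base of Ndufs5 first, positions counted from 1 at the start codon). Bases 51 to 135 are shown for both, in the direction of the coding strand in GRCm38, because they hold the only bases of the aligned stretch that tell the genes apart, with those bases in capitals.
Ndufs5: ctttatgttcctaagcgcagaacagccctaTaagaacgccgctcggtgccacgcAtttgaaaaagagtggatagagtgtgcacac
Ndufs5-ps: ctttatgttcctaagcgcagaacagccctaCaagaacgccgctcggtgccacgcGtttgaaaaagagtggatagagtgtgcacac

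The estimated counts were divided between both rows in opposite ways in the lines. Ndufs5 held 116, 103 and 60 counts in Q7-C against 1048, 1284 and 1343 in Q111-C, and 60, 64 and 78 in Q7-T against 1047, 1357 and 945 in Q111-T. Ndufs5-ps held 986, 449 and 431 counts in Q7-C against 10, 31 and 3 in Q111-C, and 335, 571 and 552 in Q7-T against 8, 7 and 2 in Q111-T. Between 10.1% and 18.7% of the sum fell on Ndufs5 in STHdhQ7 libraries and between 97.6% and 99.8% in STHdhQ111 libraries. Ndufs5-ps alone was lower in STHdhQ111 cells, with log2 fold changes of −5.65 (adjusted p = 4.69e-04, edgeR) and −6.60 (adjusted p = 1.94e-04). With both rows summed before the fit, the log2 fold change was 0.53 ± 0.45 (adjusted p = 0.465) in nontreated and 0.86 ± 0.45 (adjusted p = 0.151) in treated cells. The values therefore leave Ndufs5 itself uncertain, and whether the lines differ in the level of Ndufs5 or in the bases at these positions was not tested.

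**Figure D5:**
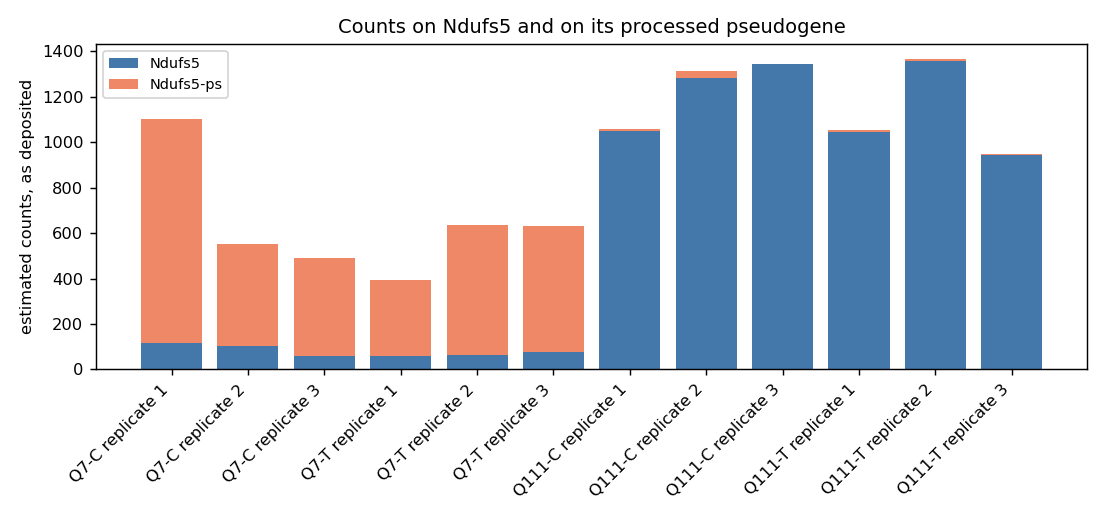
Estimated counts as deposited (vertical axis, stacked bars, not scaled for library size) on Ndufs5 and on Ndufs5-ps in each of the 12 libraries. The STHdhQ7 bars are mostly Ndufs5-ps and the STHdhQ111 bars almost wholly Ndufs5, while the summed height runs from 395 to 1102 counts in STHdhQ7 and from 947 to 1364 in STHdhQ111 libraries.

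Of the 15 rows left out as not protein-coding, 9 passed the filter and Ndufs5-ps was the only one called in Q111-C vs. Q7-C. Ndufa12-ps was the most abundant of them, at 68.6 to 229 TPM, and its parent Ndufa12, an accessory subunit of complex I, was at 40.3 to 89.9 TPM and was not called (−0.70, adjusted p = 0.299, and −0.96, adjusted p = 0.104).

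Treatment with IFNγ/LPS was followed by few changes in the members. In Q7-T vs. Q7-C, 0 of 13 mitochondrially encoded and 0 of 92 nuclear-encoded members were called by edgeR, against 5.35% of all genes. At an unadjusted p under 0.05 there were 0 and 2, and DESeq2 also called 0, against 9.39% of all genes. In TPM, 1 mitochondrially encoded member (mt-Atp6) was lower without overlap, and 1 nuclear-encoded member was higher and 5 were lower, against 5.55% higher and 8.9% lower among all genes. The medians were 0.15 and 0.30. The former was −0.26 without Q7-T replicate 2 and −0.10 without both libraries that stood apart, and the latter was 0.74 without Q7-C replicate 1, −0.32 without Q7-T replicate 2 and 0.04 without both, where again 0 members were called against 8.56% of all genes.

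In Q111-T vs. Q111-C, 1 of 13 mitochondrially encoded members was called higher and 1 of 92 nuclear-encoded members lower, against 18.7% of all genes (11.3% higher, 7.33% lower). The former was mt-Co1 (0.67 ± 0.20, adjusted p = 0.0327, edgeR), whose 3 Q111-T libraries lay above the 3 Q111-C libraries. Its call was lost without Q7-C replicate 2 or 3, any Q111-C library, Q111-T replicate 2 (0.38, adjusted p = 0.0955) or Q111-T replicate 3, with adjusted p between 0.0543 and 0.127, and mt-Co1 had 0.49 (adjusted p = 0.0507) with an offset for transcript length and 0.24 (adjusted p = 0.195) with offsets for length and G+C. mt-Co2 had 0.61 (adjusted p = 0.121) and was called higher when both libraries that stood apart were left out. The complex I subunits of this genome had a median of −0.03.

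The latter was Atp5a1, the alpha subunit of ATP synthase, with 531, 534 and 514 TPM in Q111-C and 371, 289 and 374 in Q111-T. Its log2 fold change was −0.52 ± 0.11 (adjusted p = 0.00769, edgeR), and with limma on log2(TPM + 0.5) it was −0.62 (adjusted p = 0.0501). Without Q7-T replicate 2 alone the number of nuclear-encoded members called was 5 (against 27.2% of all genes), and without both libraries that stood apart it was 14 (1 higher, 13 lower, 15.2% against 36.7% of all genes), where Ndufab1, the acyl carrier protein, was the one higher (0.42). The 13 lower ones were Ndufb8, Ndufb10, Ndufs1, Ndufs8, Ndufv1, Ndufaf4, Ndufaf7, Sdha, Uqcrc1, Uqcrc2, Atp5a1, Atp5b and Atp5g1, with log2 fold changes between −0.76 (Atp5g1) and −0.29 (Uqcrc2), all under 2-fold. In TPM, 35 of the 92 nuclear-encoded members were lower in every Q111-T than in every Q111-C library and 4 were higher, against 29.8% and 19.8% of all genes.

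The interaction of cell line and treatment was called for 0 of 105 members by edgeR, against 5.7% of all genes, with 1 mitochondrially encoded and 4 nuclear-encoded members at an unadjusted p under 0.05, and DESeq2 called 1 nuclear-encoded member, against 12.2% of all genes. Without both libraries that stood apart, Atp5a1 (−0.41, adjusted p = 0.0432) and Ndufv1 (−0.52, adjusted p = 0.0417) were called, against 17.1% of all genes. On simulated data with 200 changed genes, the main fit found 32 of them in the interaction. All 32 had been changed 4-fold, and 0 of those changed 1.5-fold or 2-fold were found. Few calls here therefore do not show that the members responded alike in both lines.

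None of the complex II genes was called between the lines. Sdha, which carries the FAD and oxidises succinate, had 53.2, 91.3 and 94.7 TPM in Q7-C against 123, 127 and 125 in Q111-C, and 77.7, 64.0 and 76.1 in Q7-T against 104, 72.4 and 99.4 in Q111-T. Q111-C lay above Q7-C without overlap in TPM, but the log2 fold change was 0.36 (adjusted p = 0.134, edgeR). Sdhb (−0.18), the iron-sulfur subunit, and the membrane anchors Sdhc (0.01) and Sdhd (−0.09) were not called in nontreated cells. All 4 were lower in every Q111-T than in every Q111-C library in TPM, as were 29.8% of all genes, at 0.736, 0.808, 0.758 and 0.794 of the Q111-C mean for Sdha, Sdhb, Sdhc and Sdhd, and none of them was called by edgeR with all 12 libraries (adjusted p between 0.162 and 0.809).

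For complex IV the ubiquitous isoforms were more abundant in TPM than the muscle and testis isoforms. Cox4i1, Cox6a1, Cox6b1, Cox7a2 and Cox8a were at 53.9 to 511 TPM in every library, and none of these was called in any comparison between the lines. Cox6a2 ranged from 0 to 10.3 TPM, and Cox4i2, Cox6b2, Cox7a1, Cox7b2 and Cox8b did not exceed 1.97 TPM in any library. Cox4i2 and Cox7b2 were not tested, and none of the others was called between the lines. Ndufa4, a subunit long counted with complex I and now placed in complex IV, was at 43.9 to 77.6 TPM and was not called. Its paralogue Ndufa4l2 was at 1.16 TPM or less, with 0.813, 1.16 and 0.699 TPM in Q111-T and at most 0.463 in any other library. AA467197, another paralogue of Ndufa4 that is outside the name pattern, had 0.523, 0 and 0 TPM in Q7-C, 0, 0.163 and 0 in Q111-C, 2.46, 1.23 and 2.76 in Q7-T, and 7.74, 10.1 and 5.70 in Q111-T. The treated libraries lay above the nontreated ones in both lines. With all 12 libraries it was called higher in Q111-T vs. Q111-C (adjusted p = 0.00773, edgeR) and not in Q7-T vs. Q7-C (adjusted p = 0.204), whereas without the libraries that stood apart both were called (adjusted p = 2.57e-04 and 0.00392). The interaction was not called (adjusted p = 0.319, and 0.442 without these libraries).

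The genes that serve the chain were followed through lists that had been drawn up with earlier results of these data known. Their counts are to be read against the 22.7% of all genes called between the nontreated and the 38.4% between the treated lines, and those without the libraries that stood apart against 34.5% and 47.8%. Among 28 genes of mitochondrial DNA and RNA maintenance, 0 were higher and 1 was lower in Q111-C vs. Q7-C (3.57%), and 1 was higher and 9 were lower in Q111-T vs. Q7-T (35.7%, close to the share among all genes). With those libraries left out, 1 was higher and 4 were lower in nontreated cells, and 2 were higher and 11 lower in treated cells. Lrpprc, which binds and stabilises mitochondrial messages, was lower in both (−0.90, adjusted p = 0.00768, and −1.40, adjusted p = 3.31e-04, edgeR). Its levels were 32.6 ± 12.5 TPM in Q7-C against 21.1 ± 0.5 in Q111-C, and 27.5 ± 10.6 in Q7-T against 13.3 ± 3.6 in Q111-T (SD, n = 3). In treated cells the mitochondrial RNA polymerase Polrmt (−0.76), the helicase Twnk (−1.19) and the transcription factor Tfam (−0.50) were lower as well. Pnpt1, which degrades mitochondrial RNA, was higher (1.61, adjusted p = 4.36e-05), with 24.2 ± 6.9 TPM in Q7-C against 38.7 ± 3.6 in Q111-C, and 26.3 ± 11.1 in Q7-T against 100.5 ± 1.8 in Q111-T. For Pnpt1 (1.22), Polrmt (−0.86) and Twnk (−0.91) the interaction of cell line and treatment was called too.

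Among 44 assembly factors outside the name pattern, 4 were higher and 0 lower in nontreated cells (9.09%; Uqcc1, Lyrm7, Coa5 and Atpaf1, at 0.70 to 1.06), and 9 were higher and 12 lower in treated cells (47.7%). Without the libraries that stood apart, 9 were higher and 3 lower in nontreated cells and 14 higher and 10 lower in treated cells, so that the balance between the treated lines turned. Higd1a, a small protein that associates with complexes III and IV, was higher in Q111-T than in Q111-C (1.89, adjusted p = 2.40e-04, edgeR), with 9.79 ± 1.52 TPM in Q7-C against 9.93 ± 0.05 in Q111-C, and 12.1 ± 1.1 in Q7-T against 34.3 ± 1.1 in Q111-T, and its interaction was called (1.41, adjusted p = 0.0344). Of 19 electron carriers and coenzyme Q genes, 2 were higher and 1 lower in nontreated (15.8%) and 1 was higher and 6 were lower in treated cells (36.8%). Without the libraries that stood apart, 4 were higher and 1 lower in nontreated cells, and 5 were higher and 4 lower in treated cells. Those lower in treated cells included Cyc1, the cytochrome c1 subunit of complex III, at −1.20 (adjusted p = 0.00743), or −0.71 (adjusted p = 5.39e-04) without these libraries. Sqor, which feeds electrons from sulfide into coenzyme Q, was higher after treatment in both lines (1.33 and 1.04). Of 14 nuclear regulators of the chain, 1 was higher and 3 were lower in nontreated cells (28.6%), namely Perm1 (1.39) against the coactivator gene Ppargc1b (−1.54), Tfeb (−1.26) and Myc (−1.05). In treated cells 2 were higher (Perm1 and Ppard) and 5 lower (50% of the list), with Pprc1 and Nrf1 beside the same 3 genes. Leaving out the same libraries, 1 was higher and 4 were lower in nontreated cells, and 4 were higher and 5 lower in treated cells. The 78 mitochondrial ribosomal protein genes had 1 higher and 2 lower in nontreated cells (3.85%, median −0.26) and 0 higher and 27 lower in treated cells (34.6%, median −0.67). Without the libraries that stood apart their medians were 0.01 (8 higher, 7 lower) and −0.16 (4 higher, 26 lower). The 83 cytoplasmic ribosomal protein genes had 0 higher in both comparisons and 2 (2.41%) and 24 (28.9%) lower, with medians of −0.44 and −1.02. Without these libraries the medians were 0.04 (5 higher, 4 lower) and −0.31 (1 higher, 22 lower).

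The levels of members relative to each other depend on the length that a count is divided by. For 99.3% of 6593 genes the length implied by the deposited TPM and counts lay within 5% of the union of all annotated exons. For 29 members this union is over 2 times the principal transcript. Atp5l, a membrane subunit of ATP synthase, ranked 77th of the nuclear-encoded members by TPM in Q7-C and 34th when its counts were divided by the principal transcript, and Ndufb8 moved from 37th to 12th. Atp5b was first on both scales. Comparisons of the same gene between groups do not use this length.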

How the data were processed

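Poly(A) RNA of 12 libraries was sequenced from both ends as stranded libraries. The submitters' processing notes and the study's methods name cutadapt, FastQC, HISAT2 (GRCm38), StringTie, DESeq2 and edgeR. The authors deposited TPM per gene and library, which sum to between 688352 and 719623 over the genes listed, and estimated counts as whole numbers without normalization. Counts fall on multiples of 4 more often than elsewhere, and their unit is not stated, so counts divided by 4 were also tested. Reads carry no molecular identifiers.

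The 16127 genes that reached 0.5 TPM in 3 or more libraries entered a single edgeR quasi-likelihood fit (edgeR 4.0.16, R 4.3.3) of the rounded counts with TMM scaling and a mean for each group, with Benjamini-Hochberg adjustment over all genes tested. Called means an adjusted p under 0.05. Sums, ratios and single members were described in TPM (Python 3.11.15, pandas 2.3.3, scipy 1.17.1, matplotlib 3.10.9) and ratios compared by two-sided exact permutation tests, whose smallest p is 0.1. Deviations of libraries were taken in log2(CPM + 0.5). Transcript lengths came from GENCODE M21 (GRCm38). The fit was tested on simulated data. The alternatives were DESeq2 1.42.0, limma 3.58.1 on log2(TPM + 0.5, 0.1 or 1), other scalings and filters, single libraries left out, a replicate block, and offsets for transcript length and G+C.

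The members and lists were chosen with earlier results of these data known. The genes named are all mitochondrially encoded members, complex II, Ndufa4 and its paralogues, the tissue isoforms of complex IV, and for each comparison up to 6 called nuclear-encoded members from either end of the range of log2 fold changes. Members named beyond these (such as Ndufa7, Ndufa11, Ndufa12, Ndufv3, Atp5g2, Atp5g3 and those called in alternatives), list genes, ratios to mt-Co1 and the pseudogene were chosen after their values were seen. Every column of the table belonged to a sample, and protein sequences were not used here.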

Additional observations from a re-analysis of the deposited data

How the results depend on the processing

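Offsets, scalings and tests changed how many nuclear-encoded members were called, and the share of all genes called changed as well. Between the nontreated lines, the number of nuclear-encoded members called (4) was 8 with DESeq2, 11, 10 and 10 with limma on log2(TPM + 0.5), log2(TPM + 0.1) and log2(TPM + 1), 7 in a fit of only the groups compared, 8 with total count scaling, 7 with a transcript length offset, 8 with length and G+C offsets and 14 without Q7-C replicate 1 and Q7-T replicate 2, while the share of all genes (22.7%) ran from 21.9% with limma to 34.5% without both libraries. Between the treated lines (13) it was 23 with DESeq2, 21 with length and G+C offsets and 9 in a fit of the groups compared, with 44.4%, 46.8% and 25.9% of all genes. For treatment of STHdhQ111 cells (1) it was 3 with DESeq2, 2 with TMM without mitochondrial genes, 7, 7 and 8 with limma, 13 in a fit of the groups compared, 5 with total counts, 10 and 11 with the offsets and 14 without both libraries, while the share of all genes (18.7%) was 34% in the fit of the groups compared, 28.8% and 31.2% with the offsets and 36.7% without both libraries. In the interaction (0) it was 1 with DESeq2, 3 and 3 with the offsets and 2 without both libraries, with 12.2%, 11.2%, 13.8% and 17.1% of all genes (5.7%). The number of mitochondrially encoded members called was 4 and 4 in the comparisons of the lines when members under 1000 nt were left out (fewer members), 5 between the treated lines in a fit of the groups compared, and for treatment of STHdhQ111 cells 0 with limma, 0 with no filter on low values and 2 without both libraries. Their median between the nontreated lines was −0.86 with limma at each pseudocount, where the median of all genes shifted to 0.27 (0.34 between the treated lines) with log2(TPM + 0.5) and 68.6% (73.4%) of calls over all genes were higher. With total counts it shifted to 0.14 (0.17), and 59.6% (63.3%) were higher, against 49% (51.5%) with TMM. Between the treated lines, mt-Atp8 took the opposite sign with limma (0.12, adjusted p = 0.762, 0.763 and 0.763) and with the length offset (0.01), and mt-Co1 without Q7-T replicate 1 (−0.01), without Q111-T replicate 2 (−0.22, range over single libraries −0.22 to 0.21) and with length and G+C offsets (−0.32). Single calls on mitochondrially encoded members were lost between the nontreated lines for mt-Atp8 with total counts and limma and for mt-Co1 with total counts, limma, TMM without mitochondrial genes and both other filters, and between the treated lines for mt-Nd4, mt-Nd5 and mt-Nd6 in a fit of the groups compared and for mt-Nd4l and mt-Nd6 with limma. Calls were also gained. Between the nontreated lines, mt-Nd5 was called with DESeq2, limma, a fit of the groups compared and both offsets. There, mt-Nd6 was called with DESeq2, that fit and both offsets, and mt-Co3 with that fit and both offsets. Between the treated lines, mt-Co3 was called with DESeq2, counts divided by 4, the replicate block and both offsets. With length and G+C offsets, mt-Atp6 (−0.95) and mt-Co2 (−0.64) were called lower too. The offsets were fitted to the trend of each library over transcript length, and in the second case over G+C as well. Why calls differed between the settings was not tested.

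The ratio of summed mitochondrially encoded to nuclear-encoded messages was 8.58, 7.91, 4.66 and 6.69 in Q7-C, Q7-T, Q111-C and Q111-T, in this order, with principal transcript lengths, 6.72, 6.43, 3.72 and 5.73 from summed counts, and 12.6, 11.8, 6.85 and 9.76 without mt-Nd6, mt-Atp8 and mt-Nd4l. Leaving out each library in turn gave 14.2 to 16.8, 12.9 to 15.8, 8.08 to 8.44 and 10.5 to 12.7. It gave 4 to 13 mitochondrially encoded and 2 to 13 nuclear-encoded members called between the nontreated lines, 5 to 12 and 9 to 25 between the treated lines (16.5% to 31.5% and 29.4% to 41.9% of all genes), 0 to 1 and 1 to 5 for treatment of STHdhQ111 cells, and 0 for treatment of STHdhQ7 cells and for the interaction. The medians ranged from −1.24 to −1.07, −1.53 to −0.71, −0.26 to 0.28, −0.21 to 0.39 and −0.43 to 0.46 for the mitochondrially encoded members (nontreated lines, treated lines, treatment of STHdhQ7 cells, treatment of STHdhQ111 cells, interaction) and from −0.44 to 0.10, −0.95 to −0.04, −0.32 to 0.74, −0.31 to 0.01 and −0.76 to 0.23 for the nuclear-encoded ones.

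Correlations did not show a pairing of libraries by replicate number. Of 18 correlations between same-numbered libraries 7 were over 0.1 (−0.60 to 0.43), and 1 of 12 libraries correlated best with its own number. Whether libraries of the same number were handled together is not given in the labels. With the replicate block, 10, 9, 0 and 1 mitochondrially encoded and 4, 13, 0 and 1 nuclear-encoded members were called in the 4 comparisons, and 0 in the interaction.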
